A study of Cenococcum geophilum 1.58 with 6 samples.

Results

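The genes described here were 89 symbiosis-regulated small secreted proteins (SSPs) of Cenococcum geophilum 1.58, an ascomycete that forms ectomycorrhizal roots (ECM) with many trees. They were chosen from the 221 secreted proteins that the study listed as regulated, by keeping each one annotated as an SSP and leaving out those also annotated as a carbohydrate-active enzyme, a protease or a lipase. All 89 were among the 14748 fungal genes measured. The study listed these proteins from ECM of pine and poplar grown in vitro, and the poplar libraries are the ones used here, so the members were chosen on the contrast that is described below. Their fold changes, and the calls that an edgeR fit across all genes gives them, are therefore a description and no independent evidence that they change. Each gene is named by its Cenge3 protein ID.

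RNA was sequenced from 3 libraries of poplar ECM and 3 of free-living mycelium (FLM), which the labels give as biological replicates of the 1 fungal strain. The host was the hybrid poplar Populus tremula x Populus alba, a single INRA clone (717-1B4) micropropagated in vitro, so no other host genotype was sampled. Plantlets were laid on mycelium that already covered cellophane on MNM medium poor in phosphorus and nitrogen, and the ECM were taken after 60 days together. FLM was a pure culture without a plant, which the study grew in identical conditions and gives as 60 days old. The mycelium under the plantlets had grown before they were added, and whether the age of FLM allows for that is not stated. The files hold fungal genes alone, so the labelled root tissue could not be checked with plant markers. Fewer fungal cells expressing a gene and less RNA per cell cannot be told apart in such bulk samples.

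SSPs are short proteins with a signal peptide that hyphae release into their surroundings. In mutualistic and pathogenic fungi some of them act as effectors: they enter the apoplast or the cells of the plant and dampen its defences or change its hormone signalling. MiSSP7 of Laccaria bicolor, which holds back jasmonate signalling in poplar, is the best known one from an ectomycorrhiza. Others build the hyphal surface, as hydrophobins do, and for many no function is known.

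The FLM libraries held 52305281 to 54586073 counts and the poplar ECM libraries 11197509 to 14396613, a ratio of 3.83 between the medians. A floor of 3 counts corresponded to 0.055 to 0.0574 CPM (counts for every 1000000 in a library) in FLM, and in ECM to 0.208 to 0.268, which limits what could be seen of the lowest genes in ECM. The 10 most abundant genes took 4.12 to 4.89% of the counts in FLM and 7.61 to 19.9% in ECM. Every FLM library shared its sequencer model with poplar ECM replicate 1, while poplar ECM replicates 2 and 3 were run on a newer model.

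Most of the SSPs were higher in poplar ECM. A gene was called up or down where edgeR gave an adjusted p below 0.05 over all genes tested and a log2 fold change above 1 or below -1. Of the 86 members with enough counts for the fit, 51 rose, 7 fell and 28 were not called, which is 59.3%, 8.14% and 32.6%. Over all 12692 genes tested, 9.94% were called up, 3.28% down and 13.2% either way. As the members were listed for being regulated, nothing is read from the difference between these shares. Scaled by library totals instead of TMM factors, 46 members rose and 11 fell, and the share of up among the calls over all genes went from 75.2% to 40.8%. Tested against the fold limit itself, 32 members rose and 1 fell.

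The median log2 fold change of the 86 members was 1.42, with quartiles at 0.07 and 2.47, against 0.0097 over all genes tested. The 51 that rose ranged from 1.18 to 6.92, and the 7 that fell from -3.12 to -1.01. In 57 of the 86 all 3 ECM libraries lay above all 3 FLM libraries, and in 12 they lay below, while these separations were seen in 22.2% and 21.4% of all genes tested. Every called member was among those without overlap. Just inside the limit of 1 stood Cenge3:659920 at -1.01, Cenge3:683947 at -1.08 and Cenge3:363167 at 1.13, the last not called. Just outside it were Cenge3:552209 at 0.87 and Cenge3:653905 and Cenge3:737226, both at 0.89.

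**Figure D1:**
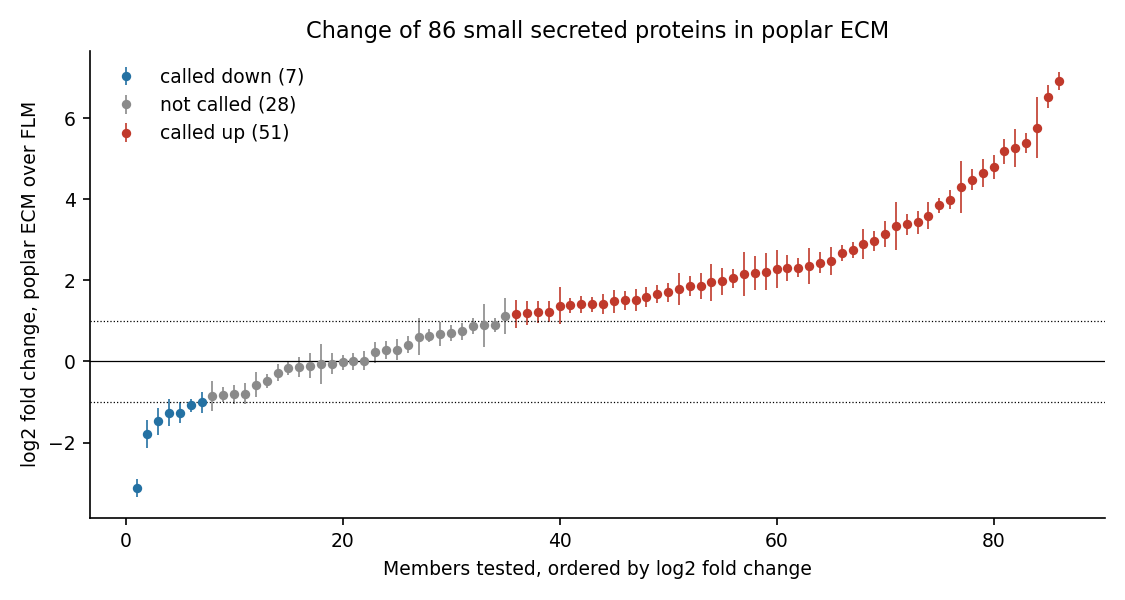
Log2 fold change of poplar ECM over FLM (y axis) for the 86 members tested, in ascending order (x axis). Points are edgeR estimates, bars their standard errors and dotted lines the limits of 1 and -1. The 51 called up reach 6.92, and of the 7 called down only Cenge3:679070 lies below -2, at -3.12.

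Together the 89 genes took a larger share of the fungal transcripts in the root. They held 0.676%, 0.702% and 0.619% of all counts in FLM replicates 1 to 3 (0.666% ± 0.0425, SD, n = 3) and 4.78%, 3.77% and 2.76% in poplar ECM (3.77% ± 1.01, SD, n = 3). A 95% Wilson interval around each share reached at most 0.011 percentage points to either side, which covers counting error only. The ECM libraries differed widely among themselves, yet the lowest was far above the highest FLM library. Without the 5 members with the most counts the shares were 0.417%, 0.383% and 0.460% in FLM and 0.640%, 0.808% and 0.668% in ECM. A handful of genes thus made up most of the gain, and the groups still did not overlap without them.

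The most abundant SSP was Cenge3:93593, which carries no domain. Its normalized counts (CPM with TMM scaling) were 1286, 1753 and 449 in FLM and 38695, 19407 and 10664 in ECM. The log2 fold change was 4.30 with a standard error (SE) of 0.646, the second largest of the members. FLM replicate 3 was the lowest of its group and ECM replicate 1 the highest, but the groups stayed well apart. This gene alone supplied 65.0%, 44.6% and 38.7% of the members' counts in ECM replicates 1, 2 and 3. By deposited FPKM, which scales counts by length, it ranked 15 of all genes in FLM and 3 in ECM.

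Next came Cenge3:681187, also without a domain. It had 381, 324 and 399 normalized counts in FLM and 8938, 11537 and 7213 in ECM, a log2 fold change of 4.65 (SE 0.335). Its FPKM rank moved from 104 to 5. The third, Cenge3:668273, is one of the mycorrhiza-induced SSPs (MiSSPs) that the study took as effector candidates. It rose from 138, 159 and 165 to 2182, 1586 and 1198 (log2 fold change 3.43, SE 0.277), and ranked 813 in FLM and 41 in ECM. All 3 were high in every ECM library, and the first 2 were the members that stood among the 10 genes with the most counts in each of them.

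**Figure D2:**
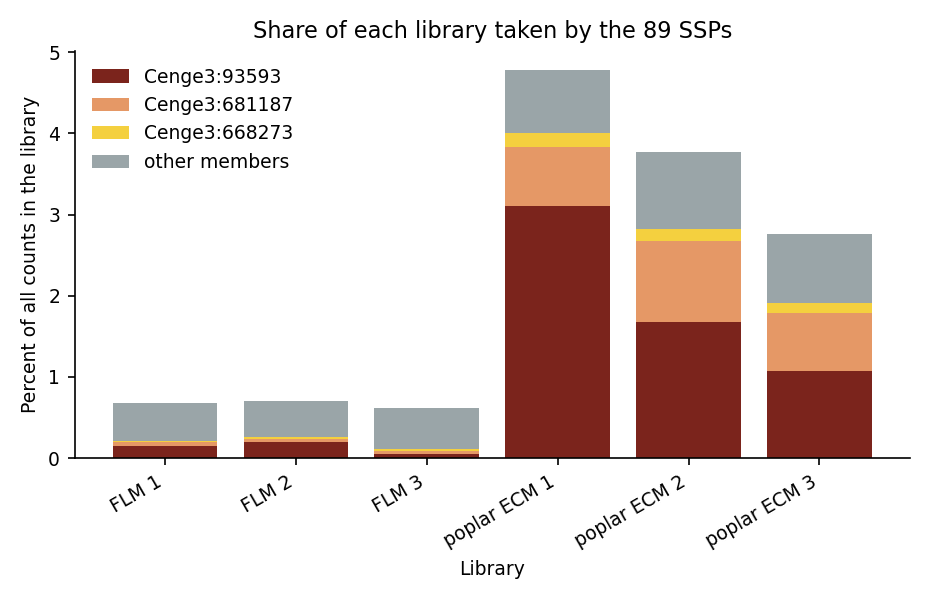
Percent of all counts (y axis) taken by the 89 SSPs in each of the 6 libraries (x axis), with Cenge3:93593, Cenge3:681187 and Cenge3:668273 drawn apart from the other members. FLM bars end between 0.619 and 0.702% and poplar ECM bars between 2.76 and 4.78%, and Cenge3:93593 takes 1.07 to 3.11% of the ECM libraries.

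On the scale of levels, the members' median lay below that of all genes in FLM and above it in ECM. Their median FPKM was 13.7 in FLM, where that of all genes was 17.5, and 43.0 in ECM, where it was 14.4. The median rank went from 8207 to 3290. Members among the 500 genes with the highest FPKM numbered 9 in FLM and 16 in ECM, and among the first 1000 there were 15 and 27. FPKM exceeded 1 for 78 members in FLM (87.6%) and 86 in ECM (96.6%), beside 82.2% and 82.1% of all genes. The highest after the 3 named above were in ECM Cenge3:655693 (mean FPKM 827), Cenge3:693798 (696), Cenge3:682064 (546), Cenge3:654025 (499), Cenge3:662470 (467), Cenge3:696975 (457) and Cenge3:623358 (403).

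The order in FLM was different below the first places. After Cenge3:93593 (mean FPKM 2113) and Cenge3:681187 (616) stood Cenge3:695398 (485), Cenge3:696975 (429), Cenge3:321474 (396), Cenge3:655693 (362), Cenge3:658113 (320), Cenge3:651565 (317), Cenge3:536963 (238) and Cenge3:694364 (181). Among these 10, only 3 rose, namely Cenge3:93593, Cenge3:681187 and Cenge3:655693, and 2 fell. Cenge3:695398, Cenge3:658113 and Cenge3:321474, none with a known domain, had log2 fold changes of -0.81, -0.80 and -0.28 and were not called.

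**Figure D3:**
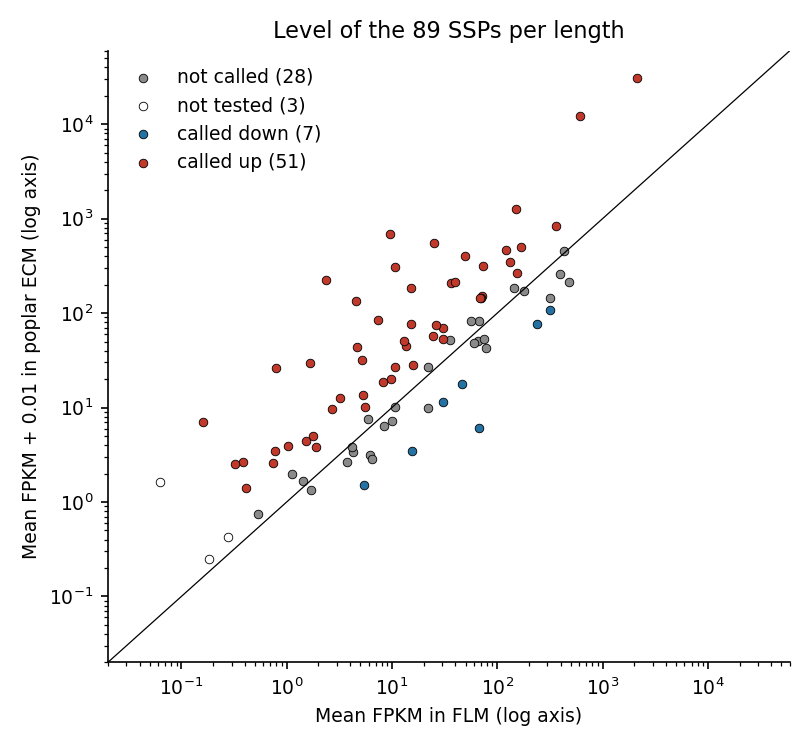
Mean deposited FPKM in FLM (x axis, log scale) and in poplar ECM (y axis, log scale) of the 89 members, each a mean of 3 libraries, with the diagonal as the line of equal level. Cenge3:93593 lies at the upper right at 2113 and 31149, and the members called down lie below the diagonal.

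The 7 largest rises were seen in genes that had fewer than 10 normalized counts in every FLM library. Cenge3:681187 and Cenge3:93593, the members with the highest mean FPKM in FLM, were also among the 10 largest. Of the 51 that rose, 9 had a mean below 1 normalized count in FLM and 21 had between 1 and 10. Cenge3:698167, a MiSSP candidate on scaffold 35 of the v2.0 assembly (bases 1243136 to 1244467), had 3.05, 2.66 and 2.65 normalized counts in FLM and 373, 351 and 290 in ECM. Its log2 fold change of 6.92 (SE 0.223), a ratio of 121, was the largest of the members. The 3 libraries of each group lay close together.

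Cenge3:693798, another candidate (scaffold 8, bases 773857 to 774895), rose from 9.86, 9.57 and 6.74 to 671, 976 and 781 (log2 fold change 6.53, SE 0.286). With it, the gene moved from FPKM rank 9175 in FLM to 104 in ECM. Cenge3:680403, also a candidate, had 0.385, 0.435 and 0.512 in FLM and 21.6, 16.6 and 18.0 in ECM (5.39, SE 0.250). Cenge3:660401 rested on few reads: 3, 6 and 0 raw counts in FLM and 55, 34 and 12 in ECM, with a log2 fold change of 5.77 and the largest SE of the members tested, 0.758.

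Outside the candidates, rises of similar size were seen in genes without a domain and in Cenge3:638993, which has a SnoaL-like domain. Cenge3:659240 had 8.30, 9.88 and 9.28 normalized counts in FLM and 239, 489 and 273 in ECM (log2 fold change 5.19, SE 0.308). Cenge3:682064 went from 9.86, 9.75 and 7.20 to 187, 348 and 213 (4.80, SE 0.287), and Cenge3:294776 from 1.38, 0.999 and 1.20 to 22.4, 35.7 and 22.4 (4.49, SE 0.270). Poplar ECM replicate 2 was the highest library for each of these 3 genes. Among the other non-candidates, Cenge3:638993 rose by 5.27, Cenge3:681187 by 4.65, Cenge3:93593 by 4.30 and Cenge3:625799 by 3.99.

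**Figure D4:**
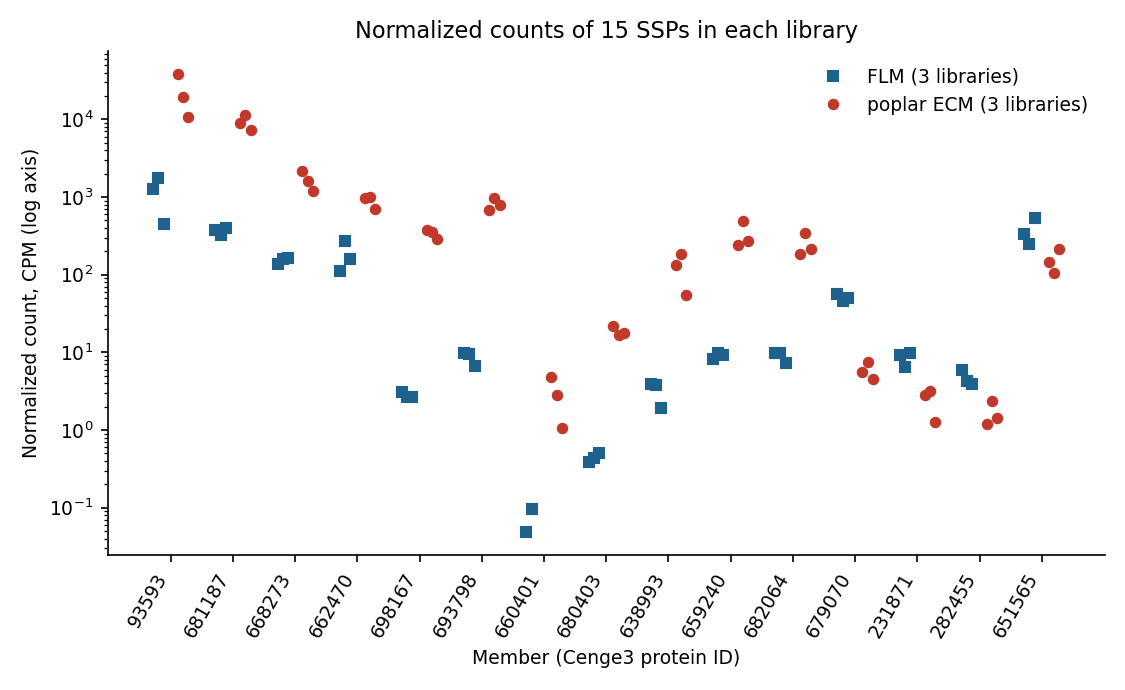
Normalized counts in CPM (y axis, log scale) of 15 members (x axis) in each FLM library (squares) and poplar ECM library (circles): the 4 with the highest mean normalized count in ECM, the 8 that rose most and the 4 that fell most, 1 gene being in more than one of these sets. The FLM replicate 3 value of Cenge3:660401 is 0 and not drawn, and in each of the 15 genes the groups do not overlap.

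The study's annotation named a domain or a similar protein for 32 members. Over all 86 members tested 59.3% rose and 8.14% fell, beside 9.94% and 3.28% of all genes tested. Differences between roles were not tested. Among the 8 proteins of the hyphal surface and cell wall 4 rose, 1 fell and 3 were not called. The 3 with a CFEM domain, a cysteine-rich module of fungal surface proteins known in Candida albicans for taking up haem iron, all rose. The most abundant of them, Cenge3:655693, had 313, 297 and 292 normalized counts in FLM and 824, 662 and 1090 in ECM (log2 fold change 1.51, SE 0.228). Cenge3:668828 rose by 2.05 and Cenge3:654025 by 1.98. The values of Cenge3:654025 in ECM spread from 261 in replicate 3 to 715 in replicate 1.

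The cerato-platanin Cenge3:667513 belongs to a family of small secreted proteins that plants can recognise. It had 90.4, 71.3 and 96.3 normalized counts in FLM and 201, 281 and 205 in ECM, a rise of 1.41 (SE 0.202). The hydrophobin Cenge3:669713, from a family that coats hyphae and makes them water-repellent, had 5.91, 3.95 and 5.08 in FLM and 3.81, 4.20 and 2.05 in ECM. The groups overlapped and it was not called (log2 fold change -0.57, SE 0.306).

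The proteins related to the structural cell wall were not called up. Cenge3:696975, with PIR repeats as in covalently bound wall proteins of yeast, had 404, 432 and 531 normalized counts in FLM and 540, 560 and 714 in ECM (log2 fold change 0.41, SE 0.209). Cenge3:687830, similar to the KRE9 protein needed for glucan assembly in yeast, stood at -0.17 (SE 0.156). Cenge3:651565, a Ser-Thr-rich protein of a GPI-anchored family, fell from 337, 246 and 544 to 144, 105 and 217 (-1.27, SE 0.332). Its lowest FLM value lay close to its highest ECM value. The call was lost without FLM replicate 3 (-0.91), ECM replicate 1 (-1.22) or ECM replicate 2 (-1.06), and with a sequencer term (-1.38).

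A set of 4 genes was grouped as sugar binding, although the annotation names a lectin in only 1 of them, and 3 of the 4 rose. Cenge3:683451, with a PAN domain, a fold that binds proteins or carbohydrates, had 5.12, 4.77 and 5.66 normalized counts in FLM and 67.7, 70.6 and 86.0 in ECM (log2 fold change 3.85, SE 0.183). Cenge3:694833, with the related Apple-like fold, had 0.418, 0.435 and 0.441 in FLM and 3.72, 4.61 and 3.12 in ECM (3.14, SE 0.320). Both groups were tight in either gene. The ricin B-type lectin Cenge3:679512 rose by 1.23, a call lost without ECM replicate 2 (0.99). The gene annotated with a glycoside hydrolase catalytic core, Cenge3:677897, overlapped between groups at 0.29.

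The enzymes and enzyme-like folds numbered 7, of which 5 rose. The largest rises were in the 2 genes with a SnoaL-like domain, a fold of polyketide cyclases and related proteins. Cenge3:638993 had 3.92, 3.82 and 1.94 normalized counts in FLM and 133, 187 and 54.0 in ECM (log2 fold change 5.27, SE 0.472), and Cenge3:667330, a MiSSP candidate, had 32.6, 21.5 and 35.6 in FLM and 250, 311 and 106 in ECM (2.90, SE 0.368). Both genes were lowest in ECM in replicate 3, which remained above every FLM library. The isochorismatase-family gene Cenge3:623358, related to hydrolases that remove a precursor of salicylate in some plant pathogens, rose from 38.8, 62.5 and 46.7 to 503, 624 and 415 (3.38, SE 0.254).

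The copper/zinc superoxide dismutase Cenge3:685270, which detoxifies superoxide, rose by 1.48 (SE 0.277) from 5.06, 7.14 and 8.15 to 15.4, 14.8 and 26.6. Cenge3:697179, similar to a secreted leucine aminopeptidase of Leptosphaeria maculans, rose by 1.20. That call was lost without FLM replicate 3 (1.08) or ECM replicate 1 (1.03). The cupin Cenge3:552209, a MiSSP candidate of the germin fold, had 21.4, 26.8 and 36.1 in FLM and 47.3, 55.5 and 51.8 in ECM without overlap. At 0.87 it stayed under the limit, and without FLM replicate 3, its highest control, it was called at 1.10. Cenge3:575556, a cysteine-rich secretory (SCP) protein, stood at 0.00 (SE 0.198).

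The 5 genes related to self-recognition and ubiquitin moved in different directions. Cenge3:664799, similar to the het-S incompatibility protein of Podospora anserina, rose from 27.2, 33.3 and 25.4 to 102, 140 and 71.4 (log2 fold change 1.86, SE 0.243). A pair with WD40 repeats did not follow it. Cenge3:683947 fell from 33.1, 33.6 and 36.2 to 16.7, 15.2 and 16.8 (-1.08, SE 0.156), and Cenge3:51027, similar to a vegetative incompatibility protein, was at -0.49 with the ECM libraries below the FLM libraries. Cenge3:679636, with the ubiquitin-binding CUE domain, and Cenge3:667087, with a But2 domain, were at -0.02 and -0.13.

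All 3 tested genes with a domain of unknown function rose. Cenge3:634429 (DUF4237), a MiSSP candidate, went from 3.26, 6.30 and 3.97 normalized counts to 75.3, 53.8 and 35.1 (log2 fold change 3.60, SE 0.331). Both DUF3455 genes rose less, Cenge3:659196 by 1.51 and Cenge3:679170 by 1.39. Of the 4 genes with other entries, Cenge3:466908 rose by 2.44 and Cenge3:645104 by 2.22, and Cenge3:694364, with a TonB box site, was at 0.28 with overlapping groups. The remaining entry, the major intrinsic protein Cenge3:660503, and the DUF3129 gene Cenge3:706988 had too few counts for the fit.

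The largest group had no entry at all. Of these 56 genes 55 were tested, 33 rose and 5 fell, with a median log2 fold change of 1.59. These shares are near the 59.3% up and 8.14% down of all members tested. For 1 further gene, Cenge3:737226, the annotation was not used here. It had 54.1, 59.0 and 51.3 normalized counts in FLM and 109, 114 and 82.9 in ECM. Its log2 fold change of 0.89 lay under the limit, with no overlap between groups.

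**Figure D5:**
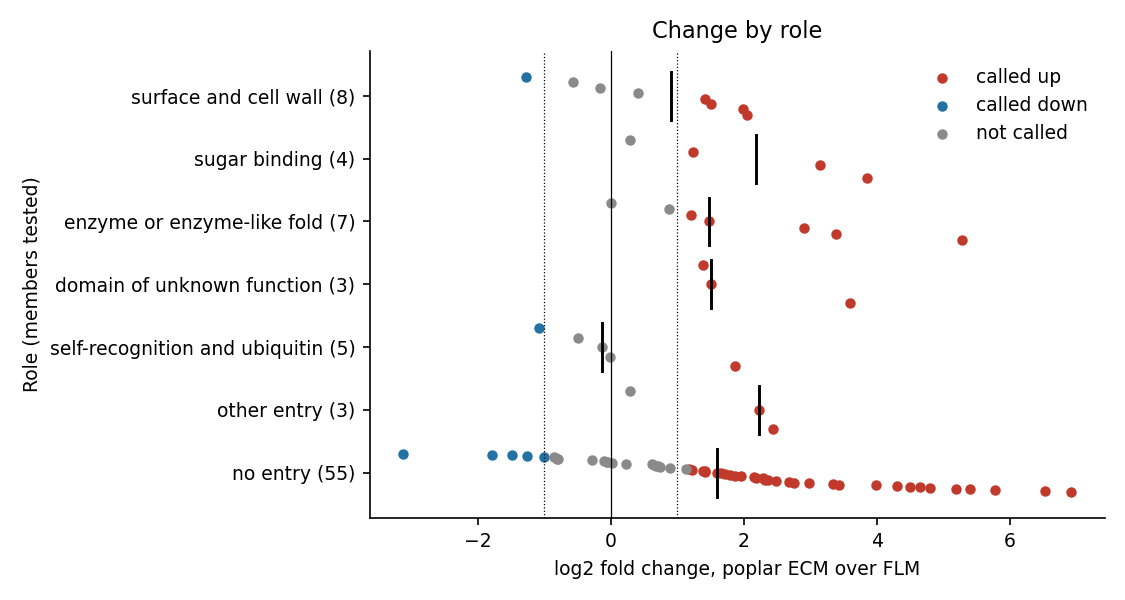
Log2 fold change of poplar ECM over FLM (x axis) of the members tested, grouped by role (y axis, number tested in brackets), without Cenge3:737226. Points are genes, coloured by call, vertical bars are group medians and dotted lines the limits. The medians run from -0.13 for self-recognition and ubiquitin to 2.22 for other entries, and the genes without an entry span -3.12 to 6.92.

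Far fewer SSPs fell. The steepest fall was that of Cenge3:679070, a gene without a domain, from 56.3, 45.8 and 50.7 normalized counts in FLM to 5.62, 7.41 and 4.55 in ECM (log2 fold change -3.12, SE 0.214). Cenge3:231871 fell from 9.17, 6.40 and 9.79 to 2.86, 3.21 and 1.25 (-1.79, SE 0.336), and Cenge3:282455 from 5.97, 4.22 and 3.90 to 1.21, 2.39 and 1.43 (-1.48, SE 0.332). In each of these genes the ECM values lay below every FLM value, and for the last pair they came close to 1 CPM.

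The other falls were smaller. Cenge3:536963, the shortest member, fell by 1.26, and Cenge3:659920 fell by 1.01, a call lost without FLM replicate 2 (-0.96) or ECM replicate 3 (-0.77). With a term for the sequencer model in the fit, 44 members rose and 2 fell, the latter being Cenge3:679070 and Cenge3:683947. Among the genes with an entry, those that then lost the call up were Cenge3:685270, Cenge3:679512, Cenge3:697179 and Cenge3:645104. Below 0 and not called, but without overlap between the groups, were Cenge3:681083 at -0.86, Cenge3:157179 at -0.82, Cenge3:695398 at -0.81, Cenge3:658113 at -0.80 and the WD40 gene Cenge3:51027 at -0.49.

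Of the 22 MiSSP candidates of the study, 13 were among the 89 genes. They had been taken for their rise in pine ECM from the greenhouse, so the poplar contrast did not choose them as candidates, though it took part in placing them among the 89. Over all 22 candidates 20 were tested, 10 rose and none fell, beside 9.94% up and 3.28% down of all genes tested. The 8 tested outside the 89 had log2 fold changes from -0.81 to 1.24 and were not called. As the 89 were listed partly on this contrast, a candidate that rises in poplar is likely to be among them already. Nothing is therefore read from the lack of calls among the 8. The 10 that rose, from the 12 tested among the 89, were Cenge3:698167, Cenge3:693798, Cenge3:660401, Cenge3:680403, Cenge3:634429, Cenge3:668273, Cenge3:666290, Cenge3:667330, Cenge3:28058 and Cenge3:661585. Cenge3:666290 had 4.03, 3.27 and 4.66 normalized counts in FLM and 35.3, 36.9 and 21.5 in ECM (log2 fold change 2.97, SE 0.254). Cenge3:28058 and Cenge3:661585 rose by 2.48 and 2.31. Cenge3:659287 had 1.03, 0.886 and 1.22 in FLM and 2.25, 1.98 and 0.535 in ECM and was not called (0.61, SE 0.456), its ECM replicate 3 lying below all FLM libraries.

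A pair of the candidates are duplicates with unequal levels. Cenge3:679266, the copy of Cenge3:693798, had 0, 0 and 4 raw counts in FLM and 8, 4 and 12 in ECM, too few for the fit (without the count filter it was called up at 4.75, and by DESeq2 at 4.93), where Cenge3:693798 had 614, 594 and 382 and then 7757, 11860 and 8759. Cenge3:660401 also has a copy, Cenge3:659858, which is not among the 89. That copy had 18, 59 and 9 raw counts in FLM and 24, 10 and 5 in ECM. Its normalized counts were 0.289, 0.951 and 0.159 in FLM and 2.08, 0.823 and 0.446 in ECM. The groups overlapped, and at a log2 fold change of 1.24 it was not called. Reads shared between copies could be assigned to either one, so the low counts of Cenge3:679266, Cenge3:660401 and Cenge3:659858 are uncertain. Of the other members not tested, Cenge3:660503 had 0, 0 and 9 counts in ECM and Cenge3:706988 had 0, 9 and 3. With Cenge3:660401 these are the 4 members at 0 counts in at least 1 library.

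The poplar ECM libraries were not alike in the level of the SSPs. Over all 86 members tested, replicate 3 was the lowest ECM library in 67.4% and replicate 2 the highest in 61.6%. Replicate 3 was the lowest of the 3 ECM libraries in 36 of the 51 members that rose (70.6%), and replicate 2 the highest in 35 (68.6%). Replicate 3 was the lowest in 55.9% of all genes called up and in 38.2% of all genes tested, and replicate 2 the highest in 46.4% and 37.2%. Its ratio to the mean of replicates 1 and 2 had a median of 0.650 over the 51 members, 0.827 over all genes called up and 0.997 over all genes tested. In 15 of the 51 members (29.4%) it was below 50%, as it was in 20.0% of all genes called up. Without replicate 3 the same 51 members were called up. Replicates 2 and 3 were run on the same sequencer model, and the part of the sequencer in this pattern was not tested.

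The spread within groups was wide. The members' median coefficient of variation was 16.3% in FLM and 26.8% in ECM, against 11.2% and 20.2% over all genes tested. An example is Cenge3:688777, with 158, 164 and 43.6 normalized counts in ECM against 30.6 to 37.8 in FLM. It rose by 1.79, and without ECM replicate 1 the call was lost at 1.56.

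A further pair of SSP lists was drawn up without the poplar libraries. The study marks 37 SSPs as raised and 47 as lowered in pine ECM from a greenhouse, which are other samples with another host. Of the raised ones 34 were tested here. In poplar ECM 14 rose (41.2%) and none fell, beside 9.94% and 3.28% of all genes tested, and their median log2 fold change was 0.75. All 14 were among the 89 genes, which hold 20 of the 37, so these counts are not independent of how the 89 were listed. In the edgeR fit 3 of the 34 had an unadjusted p below 0.05 with a negative log2 fold change, none of them below -1, and DESeq2 and limma called none down. Scaling by library totals gave 3 down, and leaving out ECM replicate 2 gave 1.

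Of the greenhouse-lowered SSPs 46 were tested, and 12 rose (26.1%), 4 fell (8.70%) and 30 were not called in poplar ECM, with a median log2 fold change of -0.06. In 13 the ECM libraries lay above all FLM libraries and in 13 below. Over all genes tested these separations were seen in 22.2% and 21.4%. An unadjusted p below 0.05 with a negative log2 fold change in edgeR was found for 12 of the 46. With library totals 10 rose and 9 fell. All 12 that rose were among the 89 genes, which hold 23 of the 47 and were listed partly on this contrast. The 12 that rose include 3 of the 10 largest rises, Cenge3:638993, Cenge3:682064 and Cenge3:681187, as well as the superoxide dismutase Cenge3:685270 and the cerato-platanin Cenge3:667513. The 4 that fell were Cenge3:651565, Cenge3:683947 and Cenge3:659920, and from outside the 89 Cenge3:678785, which went from 41.7, 46.4 and 43.5 normalized counts to 20.9, 23.0 and 21.5 (-1.01). The difference between the 2 lists was not tested.

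The genes were short. The length behind the deposited FPKM, recovered from counts and FPKM, was the span of the gene in the assembly with its introns: it lay within 1% of the RefSeq span in all 88 members that matched RefSeq and in 97.8% of 13471 genes. The median was 903 bp for the members and 1440 bp for all genes, from 221 bp (Cenge3:536963) to 1671 bp (Cenge3:662470). Members that rose, fell and were not called had medians of 859, 991 and 940 bp. Small size is part of the definition of these proteins and is no finding.

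The genes did not lie together. In the order of RefSeq genes no member was next to another, and 1 pair was within 10 genes. These were Cenge3:683947 (bases 1385827 to 1387091) and Cenge3:157179 (bases 1446179 to 1447422) of one scaffold of the v2.0 assembly, with 8 genes between them and log2 fold changes of -1.08 and -0.82. Members were spread over 47 of 149 scaffolds, which were inferred from where gene positions start again. Neighbours and scaffolds were not counted for other sets of genes. The larger of the 2 distances to a neighbouring gene had a median of 2894 bp, against 2223 bp over all genes, and the smaller one 756 bp against 468 bp. For members that rose the larger distance was 3118 bp, for those that fell 5263 bp and for those not called 1821 bp.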

How the data were processed

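RNA was measured in 3 libraries of FLM and 3 of poplar ECM. The authors sequenced cDNA with Illumina instruments, aligned the reads to C. geophilum v2.0 (the submitters' processing notes name HISAT 0.1.4) and counted primary hits on the transcribed strand per gene with featureCounts. The deposited files give raw counts, FPKM and TPM for 14748 genes. The counts deposited by the authors are not normalized. The FPKM deposited by the authors divides by the span of the gene, introns included, so levels of genes with introns come out low. The TPM deposited by the authors was used for the share of transcripts only. The study's own calls were made with DESeq2.

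Counts were fitted with edgeR 4.0.16 in R 4.3.3 (TMM factors, quasi-likelihood test) over 12692 genes, those reaching 10 counts in 3 or more libraries (2 or more where one was left out), and p-values were adjusted by the Benjamini-Hochberg method over all of them. Normalized counts are CPM with TMM factors, and the SE of a log2 fold change is its size divided by the square root of F. The biological coefficient of variation was 0.201. The scripts were tested on simulated data. Alternatives were other scalings, filters, DESeq2 1.42.0, limma 3.58.1, a test against the fold limit (glmTreat), a replicate block, a sequencer term, thinning to equal depth and leaving out each library.

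Roles were set by words in the study's Pfam, InterPro and Swiss-Prot entries. Genes were named by rule: the 10 highest members in each group by FPKM, the 10 largest rises and falls, every member with an entry, every MiSSP candidate, those not tested or at 0 counts, and the 3 nearest the limit on each side. Members outside that rule (Cenge3:688777 and the genes named for an unstable call) were chosen after their values were seen. The members, lists and tests were chosen with earlier results of these data known. Replicates are those the labels give, and p-values set the difference between the groups against the spread between these replicates. RefSeq gave positions for 88 of the 89 members. No sequence was used.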

Additional observations from a re-analysis of the deposited data

How the results depend on the processing

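Of the 58 called members 29 were tested and called alike under all 17 alternatives and 38 under all but glmTreat. At least 1 alternative ended the call of 25, and 4 more were left out of a fit by its count filter or thinning and called wherever tested. Another 8 members gained a call under at least 1, Cenge3:679266 among them, and none reversed. With library totals 46 members rose and 11 fell, of the greenhouse-raised SSPs 3 fell, and of the greenhouse-lowered ones 9 fell. This scaling put the median of all genes at -0.3323 on the log2 scale and the share of up among all calls from 75.2% to 40.8% (838 up and 1217 down against 1262 and 416), so the calls down depend on the scaling. By upper-quartile factors that share was 67.3%. With glmTreat, which tests against the limit of 1, 32 members rose and 1 fell, and of the greenhouse-lowered SSPs 6 rose and 0 fell. Over all genes it called 541 up and 61 down. With the sequencer term 2 members and 2 greenhouse-lowered SSPs fell. All genes then gave 957 up and 199 down. Only poplar ECM replicate 1 shares its sequencer with FLM, so a within-sequencer comparison would rest on 1 ECM library. By TPM the members' share was 1.11% in FLM and 5.39% in ECM. As a share of counts it was 0.666% and 3.77%, and without the 5 members with the most counts 0.42% and 0.705%.

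Leaving out each library in turn gave 45 to 51 members up and 6 to 7 down, a median log2 fold change of 1.39 to 1.46, and a share of 0.647 to 0.689% in FLM and 3.26 to 4.28% in ECM. Of the greenhouse-raised SSPs 14 to 15 rose and 0 to 1 fell, and of the lowered ones 11 to 13 rose and 2 to 4 fell, with 2 down without FLM replicate 2 or ECM replicate 1. Calls up that such an omission ended, beside those given above, were those of Cenge3:670298 (5 of the 6 omissions), Cenge3:655606 and Cenge3:659101 (3 each), Cenge3:133317 and Cenge3:569634 (1 each). The main fit did not pair the libraries by replicate number. Deviations from the group means correlated at 0.0331, 0.192 and 0.236 for numbers 1 to 3. Each ECM library correlated best with the FLM library of its own number, but FLM replicate 1 correlated best with ECM replicate 2 (0.0812). Whether the numbers pair the libraries was not tested. With a replicate block 52 members rose and 7 fell, and over all genes 1245 and 432. Depth limits the genes under about 1 CPM in ECM, where a library's floor reached 0.268.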
